A study of Mus musculus with 36 samples.

Results

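The ROCK, LIM kinase and cofilin pathway and non-muscle myosin were followed through 10 genes: the ROCK kinases Rock1 and Rock2, the LIM kinases Limk1 and Limk2, the actin-severing protein cofilin (Cfl1), the non-muscle myosin II heavy chains Myh9 and Myh10, the regulatory light chains Myl12a and Myl12b, and the myosin phosphatase targeting subunit Ppp1r12a. The genes were taken by symbol from the table of read counts, which held 55358 genes, and all 10 were among the 15114 genes with enough counts to be tested. Poly(A) RNA was sequenced from murine epidermal keratinocytes of 3 genotypes. WT keratinocytes (Pkp4+/+) and PKP4-KO keratinocytes (Pkp4-/-, with a critical exon of the junction protein plakophilin 4 removed) were isolated from newborn pups, and therefore from different animals. Rescue cells were PKP4-KO keratinocytes that carried in addition a lentiviral construct for human PKP4 tagged with EGFP at its N-terminus, and were selected with puromycin. Each genotype was cultured for 24 h or 72 h in low calcium medium (LCM), which keeps keratinocytes undifferentiated, or in high calcium medium (HCM), which induces intercellular junctions and differentiation. This gave 12 groups of 3 libraries, described by the submitters as biological replicates. No library of PKP4-KO cells with EGFP alone was among them, so the effect of PKP4 and that of transduction and selection in Rescue cells cannot be told apart. The same holds for genotype and cell isolate in the comparison of PKP4-KO with WT cells, and p-values measure the spread between these libraries.

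RhoA bound to GTP activates ROCK, and ROCK raises contractility by several routes. It phosphorylates the regulatory light chain of myosin II, it phosphorylates Ppp1r12a (MYPT1) and thereby inhibits the phosphatase that removes this mark, and it activates LIM kinases, which inactivate cofilin by phosphorylation and so stabilise actin filaments. In keratinocytes this pathway drives the tensioned cortical actin ring at adherens junctions. Most of its control is on protein activity, which RNA levels do not report.

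Libraries held 13602728 to 22467187 counts. Pkp4 itself was at 19.9%, 18.8%, 12.6% and 27.5% of the WT level in PKP4-KO cells at 24 h HCM, 72 h HCM, 24 h LCM and 72 h LCM, with p = 0.1 in each by a two-sided exact permutation test, the smallest p that 3 against 3 libraries allow. All 9 keratinocyte markers examined were detected in each genotype. Libraries differed in how long and short genes were represented. Genes were divided by length into 5 groups, and the length tilt of a library was the median log2 deviation from the mean of all libraries among the longest genes minus that among the shortest. The 3 libraries of PKP4-KO cells at 72 h HCM had tilts of -1.94 to -1.75, whereas the remaining 33 ranged from -1.24 to 1.0. Libraries below -0.3 numbered 11 of 36. Beside a result that moved with it, the value from a fit with offsets for gene length, chosen after seeing the data, is therefore given.

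**Figure D1:**
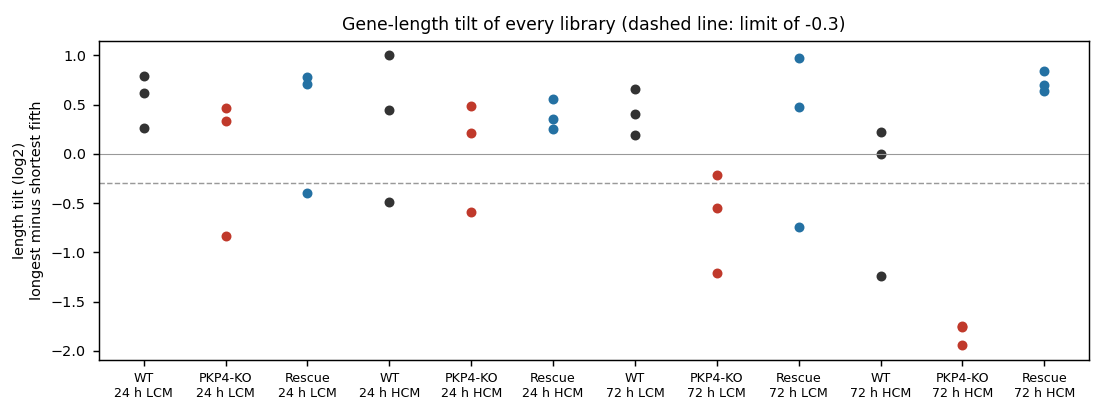
The vertical axis is the length tilt of each library in log2 units and the horizontal axis the 12 groups. Each point is 1 library, coloured by genotype (black WT, red PKP4-KO, blue Rescue), and the dashed line is the limit of -0.3. The 3 libraries of PKP4-KO cells at 72 h HCM lie at -1.94 to -1.75, below all others.

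Transcript levels of the 10 genes spanned a wide range. Levels are given as TMM-scaled CPM, the share of a library’s counts on a common scale, and between genes as CPM per kilobase of the length listed with the counts. In WT cells at 24 h HCM the group means per kilobase were 499 for Cfl1, 135 for Myl12a, 88.6 for Limk2, 14.8 for Myh9, 4.42 for Limk1, 2.13 for Ppp1r12a, 0.980 for Myl12b, 0.834 for Rock2, 0.462 for Rock1 and 0.0527 for Myh10. The order Cfl1, Myl12a, Limk2, Myh9 held in all 12 groups with no overlap between neighbouring genes, and Myh10 was last in all 12. Lower down, the libraries of Myl12b and Rock2 overlapped, as did those of Rock2 and Rock1. Limk1 exceeded Ppp1r12a per kilobase in all 4 WT groups. Ppp1r12a was the higher of the pair in PKP4-KO cells at 24 h in both media and in Rescue cells at both times in HCM. The means per kilobase of the EGFP-PKP4 construct in Rescue cells were 44.9 and 68.0 in HCM (24 h, 72 h) and 52.7 and 94.6 in LCM. Pkp4 in WT cells was lower, at 7.71, 6.76, 12.5 and 7.20 in the same order. Single Rescue libraries held 124 to 562 CPM of the construct. The paper describes these cells as overexpressing tagged PKP4. Whether the construct level bears on the Rescue results was not tested.

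**Figure D2:**
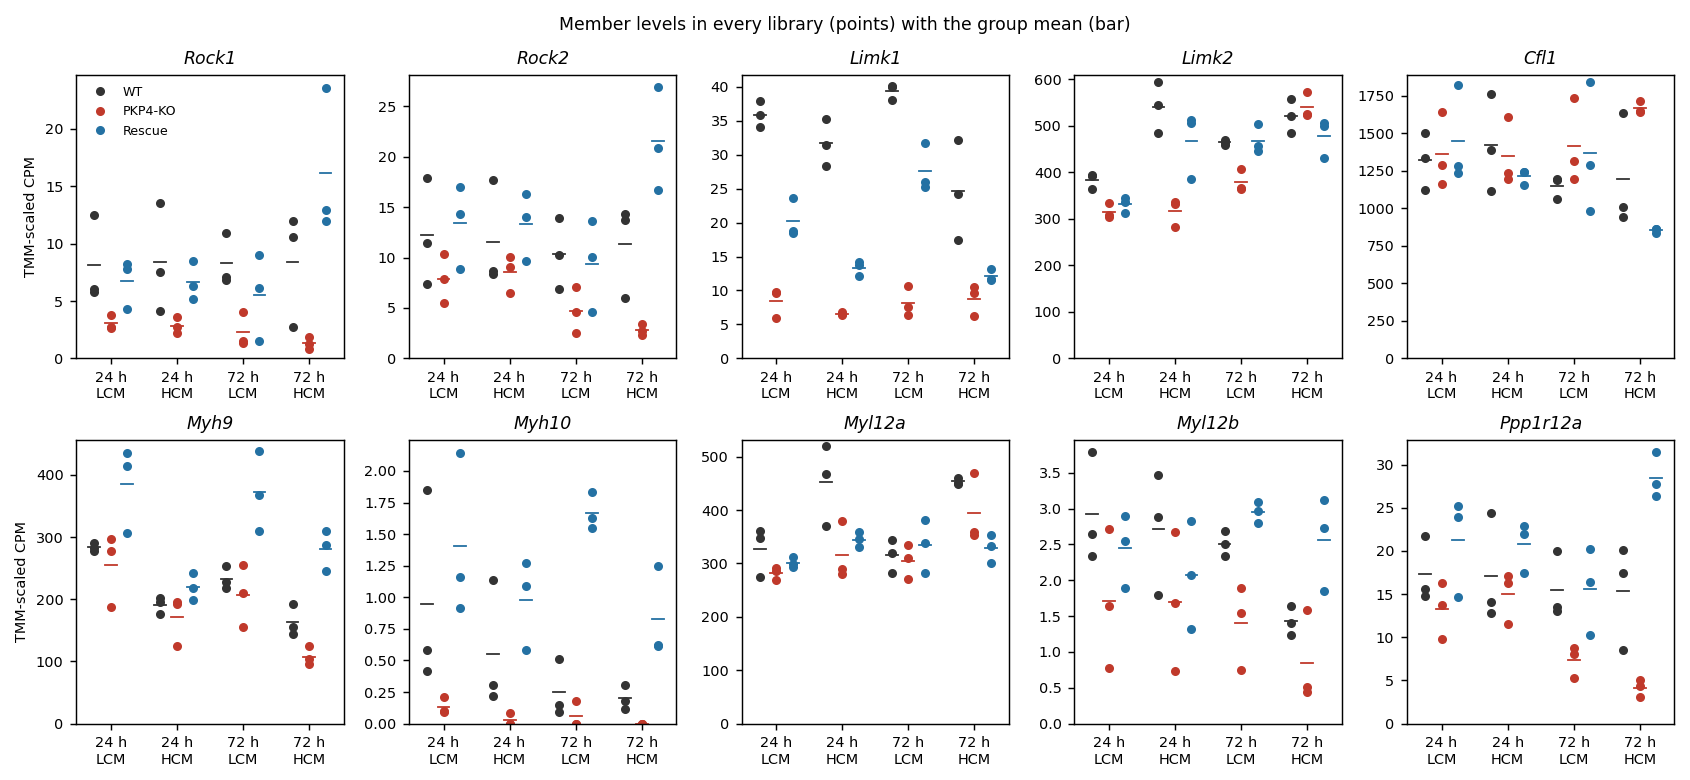
Each panel shows 1 gene, with TMM-scaled CPM on a linear vertical axis that starts at 0 and the 4 culture conditions on the horizontal axis. Points are single libraries, 3 per group, and bars are group means, for WT (black), PKP4-KO (red) and Rescue (blue). For Limk1 the 3 genotypes are separate in every condition, with WT highest and PKP4-KO lowest.

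To ask which of these transcripts depended on genotype, PKP4-KO was compared with WT cells in each condition by the quasi-likelihood test of edgeR, with p-values adjusted after Benjamini and Hochberg over all tested genes. Of the 10 genes, 5 passed at 24 h HCM, where 42.8% of all tested genes did, 5 at 72 h HCM, where 51.8% did, 4 at 24 h LCM, where 40.2% did, and 5 at 72 h LCM, where 45.1% did. The share called was thus close to that of all genes in each condition. All of these calls were decreases. Among the calls over all tested genes, 48.2%, 42.2%, 48.9% and 47.3% were increases in the same order of conditions. Called decreases made up 22.2%, 29.9%, 20.6% and 23.8% of all tested genes. The median log2 fold changes of the 10 genes were -0.59, -1.09, -0.50 and -0.94, beside -0.00157, -0.0719, 0.00325 and 0.0249 over all tested genes. With offsets for gene length, 5, 5, 2 and 4 of the 10 passed, of which 1 at 72 h HCM (Limk2) and 1 at 72 h LCM (Myh9) were higher in PKP4-KO cells, beside 45.8%, 50.1%, 42.6% and 44.7% of all tested genes. The medians of the 10 genes were then -0.62, -0.91, -0.21 and -0.57. Libraries of PKP4-KO and WT did not overlap for 4, 7, 4 and 6 of the 10 genes in the same order of conditions. Over all tested genes this held for 46.7%, 58.2%, 50.6% and 55.2%. Between Rescue and PKP4-KO it held for 6, 10, 5 and 6 genes (51.2%, 75.5%, 41.6% and 42.5%). Between Rescue and WT it held for 2, 8, 3 and 4 (35.1%, 52.9%, 40.7% and 43.5%). Lack of overlap alone thus does not set a gene apart.

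**Figure D3:**
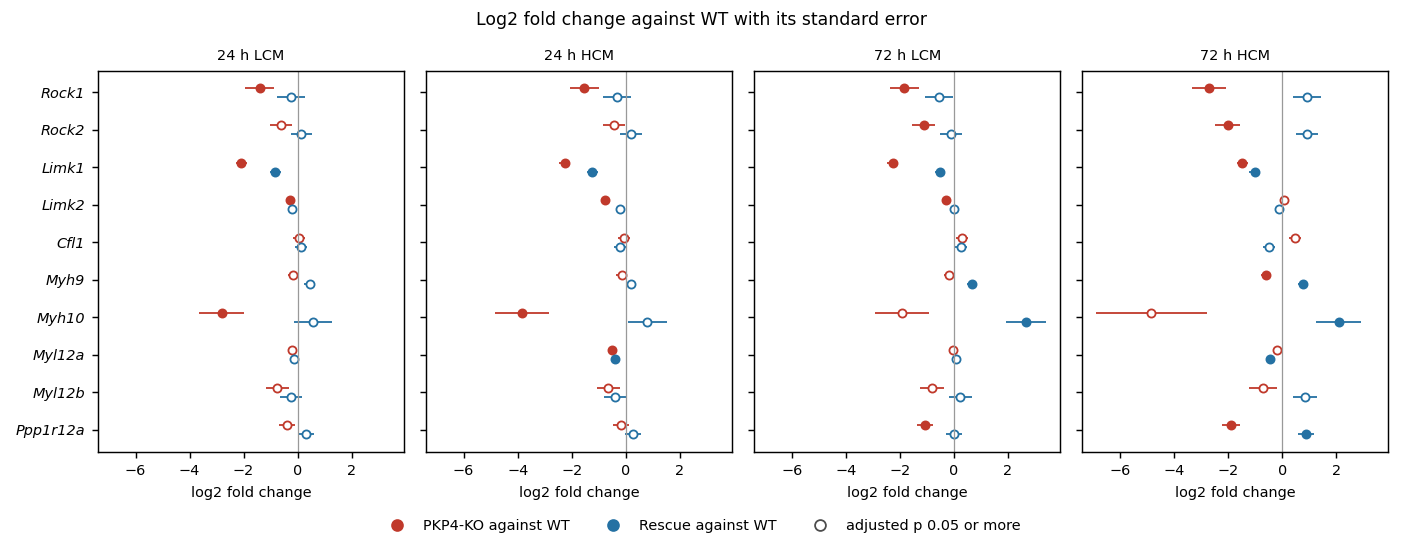
The horizontal axis is the log2 fold change against WT and each panel is 1 culture condition, with PKP4-KO in red and Rescue in blue. Error bars are standard errors, filled points have an adjusted p below 0.05 and open points do not. Limk1 is filled and left of 0 for both genotypes in every panel, and farther left in PKP4-KO.

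The ROCK kinases themselves were transcripts of low level. In PKP4-KO cells Rock1 fell in all 4 conditions, and Rock2 fell at 72 h in both media. At 24 h HCM, Rock1 was at 13.5, 4.10 and 7.49 CPM in WT, 2.70, 3.64 and 2.22 in PKP4-KO, with 5.14, 6.29 and 8.45 in Rescue cells. After 72 h in HCM the values were 10.6, 11.98 and 2.77 CPM in WT, 1.27, 1.89 and 0.795 in PKP4-KO (10, 13 and 7 counts), with 11.95, 12.97 and 23.6 in Rescue cells. In these conditions every PKP4-KO library lay below every WT and Rescue library, and the WT libraries were spread widely. The lowest WT libraries, replicate 2 at 24 h and replicate 3 at 72 h, were also those of lowest length tilt in their groups (-0.49 and -1.24). At 24 h LCM Rock1 was at 12.5, 5.78 and 6.04 CPM in WT, 2.61, 2.76 and 3.79 in PKP4-KO, with 8.24, 7.78 and 4.32 in Rescue cells. In the remaining condition, 72 h LCM, it was at 7.07, 10.9 and 6.87, at 4.02, 1.34 and 1.55, and at 9.05, 1.47 and 6.14 CPM. Here too PKP4-KO and WT libraries did not overlap, but replicate 2 of the Rescue cells at 72 h LCM was as low as the PKP4-KO libraries.

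The log2 fold changes of Rock1 in PKP4-KO against WT in HCM were -1.54 (SE 0.54, edgeR adjusted p = 0.0205) after 24 h and -2.72 (SE 0.63, adjusted p = 0.000701) after 72 h, and in LCM -1.40 (SE 0.53, adjusted p = 0.0373) and -1.84 (SE 0.55, adjusted p = 0.00762). The 24 h calls were lost when single libraries were left out. At 24 h HCM the edgeR adjusted p was 0.172 without WT replicate 1 (log2 fold change -1.02), 0.0615 without PKP4-KO replicate 1 and 0.071 without PKP4-KO replicate 3. At 24 h LCM it was 0.226 without WT replicate 1 (-0.94), 0.106 without PKP4-KO replicate 1 and 0.0982 without PKP4-KO replicate 2. With offsets for gene length the Rock1 changes were -1.10, -1.69, -0.81 and -1.08, and the 24 h LCM value no longer passed (edgeR adjusted p = 0.0873). Without the libraries of low length tilt they were -1.72 after 24 h in HCM and -1.33 after 24 h in LCM. Both passed by edgeR. That fit left out 1 WT and 1 PKP4-KO library at 24 h HCM and 1 PKP4-KO library at 24 h LCM. At 72 h LCM the change was -2.44, with replicate 3 the only PKP4-KO library left.

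Rock2, the paralog of Rock1 with 69.3% identity over the aligned coding bases, lies on chromosome 12 (16944797 to 17037834, GRCm39, plus strand, 33 exons). After 72 h in HCM, Rock2 was at 14.4, 13.7 and 5.95 CPM in WT, 3.43, 2.33 and 2.73 in PKP4-KO, with 16.7, 20.9 and 26.9 in Rescue cells, so that the 3 genotypes did not overlap. In LCM at that time it was at 10.2, 13.9 and 6.91 CPM in WT and 7.07, 2.52 and 4.65 in PKP4-KO cells, where the lowest WT library lay just below the highest PKP4-KO library. The log2 fold changes were -2.01 (SE 0.46, edgeR adjusted p = 0.000703) and -1.11 (SE 0.42, adjusted p = 0.0321). The 72 h LCM call was lost when any of 4 of the 6 libraries was left out, with -0.83 (edgeR adjusted p = 0.158) without PKP4-KO replicate 2 and -0.84 (adjusted p = 0.157) without WT replicate 2, the others being PKP4-KO replicate 3 and WT replicate 1, and with offsets for gene length it was -0.47 (adjusted p = 0.179). At 24 h the genotypes overlapped for Rock2, at 11.6 ± 5.27 CPM in WT and 8.53 ± 1.82 in PKP4-KO cells in HCM and at 12.2 ± 5.31 and 7.91 ± 2.43 in LCM (SD, n = 3), and neither difference passed. Rescue cells held 13.4 ± 3.35 CPM of Rock2 in HCM at 24 h, and in LCM 13.4 ± 4.13 and 9.41 ± 4.56 at the earlier and the later time. The Rock2 to Rock1 ratio per length averaged 1.62 to 2.02 in the WT groups, 2.88 to 3.92 in the PKP4-KO groups and 1.80 to 2.71 in the Rescue groups. At 72 h HCM single libraries overlapped, with WT up to 2.80 and PKP4-KO down to 1.60. In the other conditions WT and PKP4-KO libraries did not overlap. These 2 values, and the Rescue ratio of 4.04 at 72 h LCM, came from the libraries of lowest length tilt in their groups. A link with length tilt was not tested.

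In Rescue cells at 72 h HCM both kinases were higher than in PKP4-KO cells, Rock1 by 3.64 (SE 0.63, edgeR adjusted p = 1.53e-05) and Rock2 by 2.92 (SE 0.47, adjusted p = 5.17e-06) on the log2 scale. The length offsets reduced these changes to 2.17 and 1.65, and both still passed. In the other conditions neither kinase passed against PKP4-KO, with Rock1 at 1.20 (edgeR adjusted p = 0.0737) after 24 h in HCM and at 1.15 (adjusted p = 0.1) and 1.28 (adjusted p = 0.0609) after 24 h and 72 h in LCM. Without Rescue replicate 2 the 72 h LCM values rose to 1.71 (edgeR adjusted p = 0.00941) for Rock1 and 1.30 (adjusted p = 0.0145) for Rock2, and both passed.

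Downstream of ROCK, the LIM kinase genes differed in their dependence on genotype, and Limk1 was low in every PKP4-KO library. LIM kinases phosphorylate cofilin and are themselves activated by ROCK and by p21-activated kinases. Limk1 (chromosome 5, 134684893 to 134717504, GRCm39, minus strand, 16 exons) was at 28.4, 35.3 and 31.4 CPM in WT, 6.85, 6.36 and 6.57 in PKP4-KO, with 12.1, 14.1 and 13.7 in Rescue cells at 24 h HCM. Limk1 at 72 h HCM was at 17.5, 24.2 and 32.1, at 9.65, 6.25 and 10.4, and at 11.5, 13.2 and 11.7 CPM in the same order of genotypes. At 24 h LCM the values were 34.0, 37.9 and 35.8 CPM in WT, 9.59, 9.84 and 5.95 in PKP4-KO, with 18.5, 18.7 and 23.6 in Rescue cells. The genotypes kept 1 order, WT above Rescue above PKP4-KO, with no library of one genotype reaching into the range of another in any condition. The last condition, 72 h LCM, gave 39.9, 40.1 and 38.1 CPM in WT, 7.50, 10.7 and 6.40 in PKP4-KO, with 25.3, 31.7 and 25.9 in Rescue cells.

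The decrease of Limk1 in PKP4-KO against WT cells passed in all 4 conditions and in every fit with a library left out. In HCM it was -2.26 (SE 0.21, edgeR adjusted p = 5.50e-10) after 24 h and -1.47 (SE 0.21, adjusted p = 1.53e-06) after 72 h, and in LCM -2.09 (SE 0.21, adjusted p = 3.32e-09) and -2.27 (SE 0.21, adjusted p = 6.70e-10). With length offsets the same changes were -2.18, -1.04, -1.85 and -1.92, all of which passed. Rescue cells held a level between the other genotypes. Against PKP4-KO, with which the previous comparison shares its PKP4-KO libraries, Limk1 was higher in LCM by 1.26 (SE 0.20, edgeR adjusted p = 1.4e-05) after 24 h and 1.76 (SE 0.21, adjusted p = 6.78e-08) after 72 h, and in HCM by 1.01 (SE 0.21, adjusted p = 0.000196) after 24 h. The difference at 72 h HCM was 0.46 (SE 0.21, edgeR adjusted p = 0.0534), and with length offsets it was -0.31. Rescue cells had less Limk1 than WT cells, with log2 fold changes of -1.25, -1.01, -0.83 and -0.51 (24 h HCM, 72 h HCM, 24 h LCM, 72 h LCM, edgeR adjusted p = 2.83e-05, 0.000268, 0.00243 and 0.0464). The 72 h LCM call was lost in 5 of the 6 fits without 1 of its libraries and with length offsets (-0.42, edgeR adjusted p = 0.231).

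Limk2 (chromosome 11, 3293541 to 3359189, GRCm39, minus strand, 15 exons), the paralog of Limk1 with 70.1% identity over the aligned coding bases, was far more abundant and changed less. At 24 h HCM it was at 543, 484 and 594 CPM in WT, 332, 337 and 282 in PKP4-KO, with 505, 512 and 385 in Rescue cells. By 72 h in HCM it was at 485, 519.7 and 558, at 571, 522 and 525, and at 506, 499 and 430.4 CPM. PKP4-KO libraries lay below all others at 24 h HCM but overlapped those of WT cells at 72 h HCM. The respective log2 fold changes against WT were -0.77 (SE 0.11, edgeR adjusted p = 2.20e-06) and 0.05 (SE 0.11, adjusted p = 0.722). The second became 0.42 (edgeR adjusted p = 0.00511) with length offsets and -0.71 without TMM scaling, so that no direction can be given for it. In LCM the means were 384 ± 17.4 CPM in WT against 315 ± 16.8 in PKP4-KO cells at 24 h and 464 ± 5.37 against 379 ± 23.9 at 72 h (SD, n = 3), with no overlap. These differences of -0.28 (SE 0.11, edgeR adjusted p = 0.0450) and -0.29 (SE 0.11, adjusted p = 0.0372) were each lost in 5 of the 6 fits without 1 library, all but those without PKP4-KO replicate 2 at 24 h and without PKP4-KO replicate 3 at 72 h, and were -0.12 (edgeR adjusted p = 0.443) and -0.04 (adjusted p = 0.83) with length offsets. Rescue cells were above PKP4-KO at 24 h HCM by 0.56 (SE 0.11, edgeR adjusted p = 0.00019), where their 3 libraries overlapped those of WT cells. At 72 h LCM they were above PKP4-KO by 0.30 (SE 0.11, edgeR adjusted p = 0.0323), which was lost without replicate 1 or 3 of Rescue cells, without replicate 1 or 2 of PKP4-KO cells and with length offsets (0.10, adjusted p = 0.544).

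Because the LIM kinase genes moved unequally, the balance between them shifted. The Limk2 to Limk1 ratio per length within each library was 12.6 ± 0.327 in WT against 45.8 ± 12.2 in PKP4-KO, with 19.5 ± 3.42 in Rescue cells at 24 h LCM (SD, n = 3). The ratio at 72 h LCM was 13.8 ± 0.545, 57.4 ± 17.1 and 20.2 ± 3.47. In HCM it was 20.3 ± 3.60, 56.5 ± 5.94 and 41.5 ± 8.01 at 24 h and 26.1 ± 6.13, 75.6 ± 20.2 and 46.4 ± 4.48 at 72 h. The WT and PKP4-KO ratios did not overlap in any condition. Nor did they overlap across conditions. The highest WT ratio of all was 32.6, at 72 h HCM, and the lowest PKP4-KO ratio of all was 37.7, at 24 h LCM. Being a ratio within a library, this measure is free of the scaling between libraries.

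The promoters of the LIM kinase genes are shown because these genes moved so differently. They cover 250 bases before to 50 bases after the start farthest upstream of those listed for each gene, were taken from RefSeq on GRCm38.p6 and are written on the strand of the gene, 5′ to 3′. Capitals mark GGGCGG, the core of the GC box, on either strand, and TGANTCA, the AP-1 consensus with a free centre. The Limk1 promoter at chr5:134688541-134688840 (minus strand) held 6 GGGCGG, and the Limk2 promoter at chr11:3409189-3409488 (minus strand) held 2 GGGCGG and 1 TGANTCA.
Limk1: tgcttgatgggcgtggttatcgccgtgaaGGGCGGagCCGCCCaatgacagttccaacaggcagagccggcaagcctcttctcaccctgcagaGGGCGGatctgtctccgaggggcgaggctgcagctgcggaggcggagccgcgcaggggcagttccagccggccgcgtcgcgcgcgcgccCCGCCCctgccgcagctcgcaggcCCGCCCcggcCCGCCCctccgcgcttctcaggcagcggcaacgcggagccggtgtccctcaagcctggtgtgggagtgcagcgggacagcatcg
Limk2: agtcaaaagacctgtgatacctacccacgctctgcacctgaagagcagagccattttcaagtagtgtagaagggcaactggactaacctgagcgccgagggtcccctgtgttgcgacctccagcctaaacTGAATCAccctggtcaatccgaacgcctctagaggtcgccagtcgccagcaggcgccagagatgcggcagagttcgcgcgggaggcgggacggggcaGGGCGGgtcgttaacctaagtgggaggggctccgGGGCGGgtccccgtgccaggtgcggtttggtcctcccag

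Across 32851 promoters of the same length, 35.7% held GGGCGG and 7.81% held TGANTCA on either strand. The Rock2 and Myh9 promoters held 6 GGGCGG each, that of Myl12b 3, those of Cfl1 and Ppp1r12a 2 each, that of Myl12a 1 and that of Myh10 none. TGANTCA occurred in the Myl12a promoter also. The CArG box, the motif bound by serum response factor, was in none of these promoters and in 1.63% of all. GGAATG, the core motif of TEAD factors, was in the Myl12a and Myh10 promoters and in 14.7% of all. These are matches of letters within 1 window per gene, and Rock1 was not among the genes with a window. RefSeq lists 2 starts for Limk1 and 3 for Limk2, and the windows at the starts not shown held 0 GGGCGG for Limk1 and 2 and 0 for Limk2.

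Cfl1, the target of LIM kinases, severs and depolymerises actin filaments. It was the most abundant of the genes per length (chromosome 19, 5540483 to 5545229, GRCm39, plus strand, 4 exons). No difference between PKP4-KO and WT cells passed. After 72 h in HCM, Cfl1 was at 939, 1009.7 and 1633 CPM in WT, 1645, 1712 and 1639 in PKP4-KO, with 860.1, 838 and 860.3 in Rescue cells. Replicate 3 of WT stood apart from the other WT libraries and lay next to the PKP4-KO libraries, and it was also the WT library of lowest length tilt, at -1.24. The log2 difference between PKP4-KO and WT was 0.48 (SE 0.22, edgeR adjusted p = 0.0676), and without this library it was 0.77 (adjusted p = 0.00561). Rescue cells had less Cfl1 than PKP4-KO cells at 72 h HCM, with a log2 fold change of -0.97 (SE 0.22, edgeR adjusted p = 0.000422) that was -0.88 with length offsets and turned to 0.21 without TMM scaling. In the other conditions the group means lay between 1147 ± 74.4 CPM (WT, 72 h LCM) and 1445 ± 324 CPM (Rescue, 24 h LCM; SD, n = 3), and no genotype comparison passed. After removal of group means, Cfl1 followed the length tilt of the libraries more closely than any other of the genes (r = -0.97 over 36 libraries that share 12 groups, a description). Next in size were Ppp1r12a (0.86), Rock2 (0.81), Myh9 (0.79) and Rock1 (0.75), and the rest lay between -0.58 and 0.44. Without that removal Ppp1r12a (0.92), Rock2 (0.88) and Rock1 (0.81) followed it more closely than Cfl1 (-0.75). Transcripts of Snx32 on the opposite strand cover 32.9% of the exonic bases of Cfl1, and how the counting treated strand was not given in the sources used here.

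Ppp1r12a targets protein phosphatase 1 to myosin and is inhibited by ROCK. It lies on chromosome 10 (107997640 to 108120336, GRCm39, plus strand, 25 exons). It fell in PKP4-KO cells at 72 h in both media and did not pass at 24 h. Its level at 72 h HCM was 17.5, 20.1 and 8.51 CPM in WT, 4.32, 5.09 and 3.07 in PKP4-KO, with 27.7, 26.3 and 31.4 in Rescue cells, 3 ranges that did not overlap. In LCM at 72 h it was at 13.1, 19.96 and 13.5, at 8.72, 5.28 and 8.10, and at 20.2, 10.2 and 16.4 CPM. PKP4-KO libraries were again below all others. The log2 fold changes against WT were -1.90 (SE 0.34, edgeR adjusted p = 3.18e-05) and -1.07 (SE 0.31, adjusted p = 0.00591), and with length offsets -1.33 and -0.66, both of which passed. At 24 h WT and PKP4-KO libraries overlapped, at 17.1 ± 6.31 and 15.0 ± 2.96 CPM in HCM and 17.4 ± 3.80 and 13.3 ± 3.27 in LCM (SD, n = 3), with -0.19 (edgeR adjusted p = 0.661) in HCM and -0.39 (adjusted p = 0.319) in LCM. Rescue cells were higher than PKP4-KO by 2.78 (SE 0.34, edgeR adjusted p = 7.87e-08) at 72 h HCM, 1.92 with offsets, and by 1.08 (SE 0.31, adjusted p = 0.00569) at 72 h LCM. They also exceeded WT cells at 72 h HCM, by 0.88 (SE 0.30, edgeR adjusted p = 0.0235), a call that was lost without WT replicate 3 (0.60, adjusted p = 0.159) and without Rescue replicate 3 (0.80, adjusted p = 0.068).

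Of the myosin II heavy chains, Myh9 (chromosome 15, 77644785 to 77726381, GRCm39, minus strand, 41 exons) is the main isoform of keratinocytes. Its highest levels were in Rescue cells. At 72 h HCM Myh9 was at 155, 193 and 144 CPM in WT, 124, 95.8 and 103 in PKP4-KO, and in Rescue cells at 287, 309.8 and 246, with no overlap between genotypes. At 24 h LCM it was at 283, 291 and 277, at 188, 297 and 278, and at 414, 435 and 307 CPM. At 72 h LCM it was at 218, 254 and 228, at 255, 156 and 209, and at 439, 309 and 367 CPM. In LCM the WT and PKP4-KO libraries overlapped and all Rescue libraries lay above both. At 24 h HCM, where no genotype comparison passed, WT cells averaged 191 ± 13.8 CPM of Myh9, PKP4-KO cells 171 ± 40.4 and Rescue cells 219.6 ± 21.6 (SD, n = 3). Relative to PKP4-KO, Rescue cells were higher by 1.38 (SE 0.20, edgeR adjusted p = 9.22e-07) after 72 h in HCM and, in LCM, by 0.60 (SE 0.19, adjusted p = 0.0163) after 24 h and 0.85 (SE 0.19, adjusted p = 0.000785) after 72 h. None of the 3 passed with length offsets, at 0.16 (edgeR adjusted p = 0.37), 0.24 (adjusted p = 0.244) and 0.30 (adjusted p = 0.125). The 24 h LCM call was also lost without PKP4-KO replicate 1 (0.42), Rescue replicate 1 (0.54) or Rescue replicate 2 (0.50).

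Against WT, Myh9 in Rescue cells was higher by 0.78 (SE 0.19, edgeR adjusted p = 0.00252) at 72 h HCM and 0.67 (SE 0.19, adjusted p = 0.00772) at 72 h LCM. With length offsets the first was 0.32 (edgeR adjusted p = 0.106) and the second 0.72, and the second was lost without Rescue replicate 1 (0.54, adjusted p = 0.0539). For PKP4-KO against WT the single Myh9 call was -0.60 (SE 0.19, edgeR adjusted p = 0.0105) at 72 h HCM. It became 0.16 (edgeR adjusted p = 0.415) with length offsets, and it was lost without PKP4-KO replicate 2 (-0.53, adjusted p = 0.0523) or WT replicate 2 (-0.47, adjusted p = 0.074). At 72 h LCM the value of -0.18 (edgeR adjusted p = 0.466) turned to 0.42 (adjusted p = 0.0272) with offsets.

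**Figure D4:**
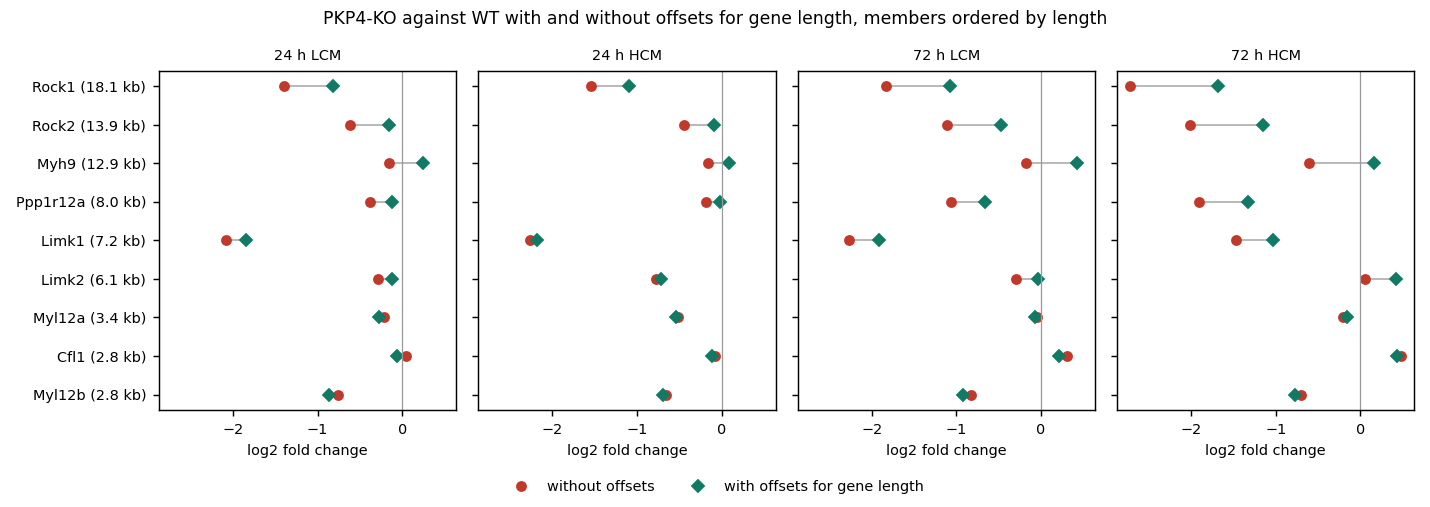
Each panel is 1 culture condition and plots the log2 fold change of PKP4-KO against WT for 9 genes ordered by length, Myh10 being left out for its low counts. Red circles are values without and green diamonds values with offsets for gene length, joined by grey lines. Limk1 stays left of 0 in all panels, and Myh9 moves from -0.60 to 0.16 at 72 h HCM.

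Myh10 (chromosome 11, 68582385 to 68707470, GRCm39, plus strand, 41 exons), the heavy chain of myosin IIB, was close to the detection limit. A count of 3 or fewer per library, taken as the floor, was found in 18 of 36 libraries. WT cells had 22, 3 and 6 counts at 24 h HCM, 3, 2 and 3 at 72 h HCM, 35, 10 and 8 at 24 h LCM and 3, 13 and 2 at 72 h LCM. PKP4-KO cells had 0, 2 and 0, then 0, 0 and 0, then 3, 2 and 2, and then 3, 0 and 0 counts in the same order. Rescue cells had 22, 11 and 22, then 27, 16 and 13, then 47, 28 and 14, and then 50, 21 and 31 counts. No PKP4-KO library thus exceeded the floor, and every Rescue library did. With PKP4-KO set to the floor of 3 counts per library, Rescue cells were at least 6.05-fold, 2.15-fold, 8.39-fold and 8.56-fold higher than PKP4-KO at 24 h HCM, 72 h HCM, 24 h LCM and 72 h LCM, and WT cells were at least 3.40-fold and 5.67-fold higher at 24 h HCM and 24 h LCM. Without WT replicate 1 these last bounds were 1.61-fold and 2.98-fold. By edgeR the differences between PKP4-KO and WT passed in these 24 h conditions (adjusted p = 0.00297 and 0.00880) and not at 72 h HCM (adjusted p = 0.0504) or 72 h LCM (adjusted p = 0.116). The 24 h LCM call was lost without WT replicate 1 (edgeR adjusted p = 0.108). By edgeR, Rescue against PKP4-KO passed for Myh10 in all 4 conditions.

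Myh10 is abundant in mesenchymal cells, and markers of such cells, like Myh10, were lowest in PKP4-KO libraries. Between Rescue and WT cells they differed from Myh10 in direction, being lower in Rescue cells. The summed level of 9 fibroblast and smooth muscle genes was 6.87 to 83.7 CPM (median 26.6) in WT, 0.291 to 4.25 (median 1.26) in PKP4-KO and 2.36 to 11.3 (median 5.60) in Rescue libraries. Of the 9 genes, 8 exceeded the floor in WT, 5 in PKP4-KO and again 8 in Rescue cells, and Lum was at 0 in all WT libraries. Their part in the Myh10 result was not tested, and in such bulk samples fewer cells of a type and less RNA per cell cannot be told apart. Summed melanocyte markers did not exceed 2.09 CPM, endothelial markers 5.41 CPM and immune markers 6.44 CPM in any library, with Tyr and Cd207 at 0 throughout.

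Myl12a and Myl12b encode the regulatory light chain that ROCK phosphorylates. They are neighbours on chromosome 17 on the minus strand of GRCm39, Myl12b at 71280119 to 71297959 and Myl12a at 71299231 to 71310871, with 4 exons each and 1.3 kb between them. Their coding sequences, of 516 bases each, are identical at 498 positions, with a longest identical run of 102 bases. Coding bases 1 to 90 of each (transcripts Myl12a-206 and Myl12b-201) are shown as an example of this likeness. Per the paper's methods, single reads were longer than that identical run. Capitals mark the bases that differ.
Myl12a: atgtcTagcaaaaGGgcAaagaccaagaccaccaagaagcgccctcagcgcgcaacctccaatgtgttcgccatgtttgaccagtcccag
Myl12b: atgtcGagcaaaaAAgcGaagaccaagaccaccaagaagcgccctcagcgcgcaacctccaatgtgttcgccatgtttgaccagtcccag

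A further gene model on the same strand in GENCODE vM39, Gm49909, covers all coding bases of Myl12b and 67.1% of those of Myl12a. Whether reads shared between such genes were counted was not given in the sources used here, so the levels of Myl12b, at 3 to 81 counts per library, and the Myl12a to Myl12b ratio, 93.6 to 551 per length between groups, are uncertain. The level of Myl12a may be affected too. Gm49909 covers 12.6% of the bases of transcript Myl12a-206 and 33.2% of those of Myl12b-201. Adding the counts of Myl12a and Myl12b changed none of the calls of Myl12a. With Myl12a at 2830 to 9183 counts per library, the sum could hardly differ from Myl12a alone. It therefore does not bear on how reads were assigned.

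Myl12a fell in PKP4-KO cells at 24 h HCM and did not pass elsewhere. It was at 370.4, 519 and 468 CPM in WT, 279.8, 289.8 and 379 in PKP4-KO, with 345, 358 and 331 in Rescue cells. PKP4-KO replicate 3 reached into the WT range. The log2 fold change was -0.52 (SE 0.14, edgeR adjusted p = 0.00459). At 72 h HCM Myl12a was at 461, 451 and 449, at 359, 469 and 354, and at 353, 299.9 and 332 CPM, and the difference between PKP4-KO and WT was -0.20 (edgeR adjusted p = 0.244). Rescue cells were below WT in HCM, with log2 fold changes of -0.39 (SE 0.14, edgeR adjusted p = 0.0492) at 24 h and -0.47 (SE 0.14, adjusted p = 0.0132) at 72 h. In LCM the Myl12a group means lay between 282 ± 11.3 and 334 ± 49.3 CPM (SD, n = 3), and no genotype comparison passed. Of the HCM calls against WT, the first was lost in 5 of 6 fits without 1 library and the second without Rescue replicate 2. Myl12b did not pass between PKP4-KO and WT cells. At 72 h HCM it was at 1.24, 1.41 and 1.64 CPM in WT, 0.508, 0.436 and 1.59 in PKP4-KO (4, 3 and 14 counts), with 2.73, 3.12 and 1.86 in Rescue cells, with -0.71 (edgeR adjusted p = 0.242) between the first pair and -1.57 (adjusted p = 0.0334) without PKP4-KO replicate 3. Rescue exceeded PKP4-KO by 1.56 (SE 0.48, edgeR adjusted p = 0.00618). In LCM the Myl12b means lay between 1.40 ± 0.583 CPM (PKP4-KO, 72 h) and 2.95 ± 0.150 (Rescue, 72 h), and no genotype comparison passed.

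Counted together, the comparison of Rescue with PKP4-KO cells called 3 of the 10 genes at 24 h HCM (all higher in Rescue, beside 40.8% of all tested genes and 21.7% counting only the higher), 7 at 72 h HCM (6 higher and Cfl1 lower, beside 66.7% and 37.2%), 3 at 24 h LCM (all higher, beside 33.7% and 18.2%) and 5 at 72 h LCM (all higher, beside 41.5% and 23.3%). Limk1, Myh9 and Myh10 made up the calls at 24 h LCM, and Limk1, Limk2 and Myh10 those at 24 h HCM. The comparison of Rescue with WT cells called 2 genes at 24 h HCM (Limk1 and Myl12a, beside 23.2%), 5 at 72 h HCM (beside 36.2%), 1 at 24 h LCM (Limk1, beside 24.8%) and 3 at 72 h LCM (beside 32.4%). In that 72 h HCM comparison Limk1 and Myl12a were lower and Myh9, Myh10 and Ppp1r12a higher in Rescue than in WT cells. The Myh10 call was lost in 6 of 6 fits without 1 library. At 72 h LCM Limk1 was lower and Myh9 and Myh10 higher. With length offsets, Rescue against PKP4-KO called 3 (3 higher and 0 lower), 8 (5 and 3), 2 (2 and 0) and 4 (4 and 0). The order is 24 h HCM, 72 h HCM, 24 h LCM and 72 h LCM, beside 44.2%, 60.2%, 36.2% and 40.9% of all tested genes. Rescue against WT then called 2 (0 and 2), 4 (1 and 3), 2 (1 and 1) and 2 (2 and 0). Of the 15114 tested genes, 4004, 5425, 4229 and 5340 passed there. The shares of all tested genes are high, so the counts alone do not set these genes apart.

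The effect of PKP4 loss changed with time in HCM for 3 genes. The difference of the PKP4-KO effect, 72 h minus 24 h, was 0.79 for Limk1 (SE 0.29, edgeR adjusted p = 0.044), 0.82 for Limk2 (SE 0.16, adjusted p = 0.000277) and -1.71 for Ppp1r12a (SE 0.45, adjusted p = 0.00505), beside calls for 26.6% of all tested genes. Thus Limk1 and Limk2 were more reduced at 24 h and Ppp1r12a at 72 h. The Limk1 value lost its call in 9 of 12 fits without 1 library, and all 3 passed with length offsets, at 1.14, 1.13 and -1.30. Without TMM scaling the differences of Limk1 and Limk2 vanished, at -0.00228 and 0.00362, and that of Ppp1r12a was -2.59. None of the 10 passed for the difference of the effect between HCM and LCM at 24 h (4.02% of all tested genes, 1 member at an unadjusted p under 0.05 and 1 by DESeq2), between HCM and LCM at 72 h (5.74%, 2 and 1) or between 72 h and 24 h in LCM (5.25%, 0 and 0).

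The response to calcium was read within each genotype as HCM against LCM. In WT cells at 24 h, 3 of the 10 genes passed (14.2% of all tested genes). Limk2 rose by 0.49 (SE 0.11, edgeR adjusted p = 0.00262), Myl12a rose by 0.46 (SE 0.14, adjusted p = 0.0282) and Myh9 fell by 0.57 (SE 0.19, adjusted p = 0.0466) on the log2 scale. The Myh9 call was lost in 6 of 6 fits without 1 library, and that of Myl12a without HCM replicate 2 (edgeR adjusted p = 0.175), HCM replicate 3 (0.0798) or LCM replicate 1 (0.172). At 72 h, 2 passed (21.4%), Myl12a at 0.52 (SE 0.14, edgeR adjusted p = 0.00923) and Limk1 at -0.68 (SE 0.20, adjusted p = 0.0127). The Myl12a call was lost without LCM replicate 2 (edgeR adjusted p = 0.063), and the Limk1 call was lost without HCM replicate 1 (-0.49, edgeR adjusted p = 0.104) and with length offsets (-0.45, adjusted p = 0.259). In PKP4-KO cells none of the 10 passed at 24 h by edgeR, where 2.83% of all tested genes did, with 1 at an unadjusted p under 0.05 and 1 by DESeq2. At 72 h 3 passed (32.6%), Limk2 at 0.51 (edgeR adjusted p = 0.000973), Myl12a at 0.37 (adjusted p = 0.049) and Myh9 at -0.94 (adjusted p = 0.000472). Without TMM scaling Limk2 and Myl12a turned to -0.19 and -0.32. The Myl12a call was also lost without HCM replicate 2 (0.23, edgeR adjusted p = 0.287), LCM replicate 1 (adjusted p = 0.0843) or LCM replicate 3 (adjusted p = 0.204). Between PKP4-KO and WT cells the calcium response was compared by the difference between HCM and LCM above, where none passed by edgeR. There Limk2 at 24 h (-0.49, SE 0.16, edgeR adjusted p = 0.0908) passed with length offsets (-0.59, adjusted p = 0.0375) and by DESeq2 (-0.50, adjusted p = 0.00408). Whether the response of Rescue cells differed was not tested.

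In Rescue cells Limk1 was lower in HCM than in LCM at both times, with log2 fold changes of -0.60 (edgeR adjusted p = 0.0458) at 24 h, lost in 6 of 6 fits without 1 library, and -1.19 (adjusted p = 5.99e-05) at 72 h. At 24 h 3 of the genes passed (12% of all tested genes), Limk2 at 0.50 (edgeR adjusted p = 0.00282) and Myh9 at -0.81 (adjusted p = 0.00446) being the others. At 72 h 5 passed (24.9%), with Rock1 at 1.52 (edgeR adjusted p = 0.0321), Rock2 at 1.18 (adjusted p = 0.034), Ppp1r12a at 0.86 (adjusted p = 0.035) and Cfl1 at -0.68 (adjusted p = 0.0224) in addition. These last 4 calls were lost in 3, 4, 5 and 4 fits without 1 library, and Cfl1 was -0.41 (edgeR adjusted p = 0.225) without LCM replicate 2, the Rescue library of lowest length tilt (-0.75).

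**Figure D5:**
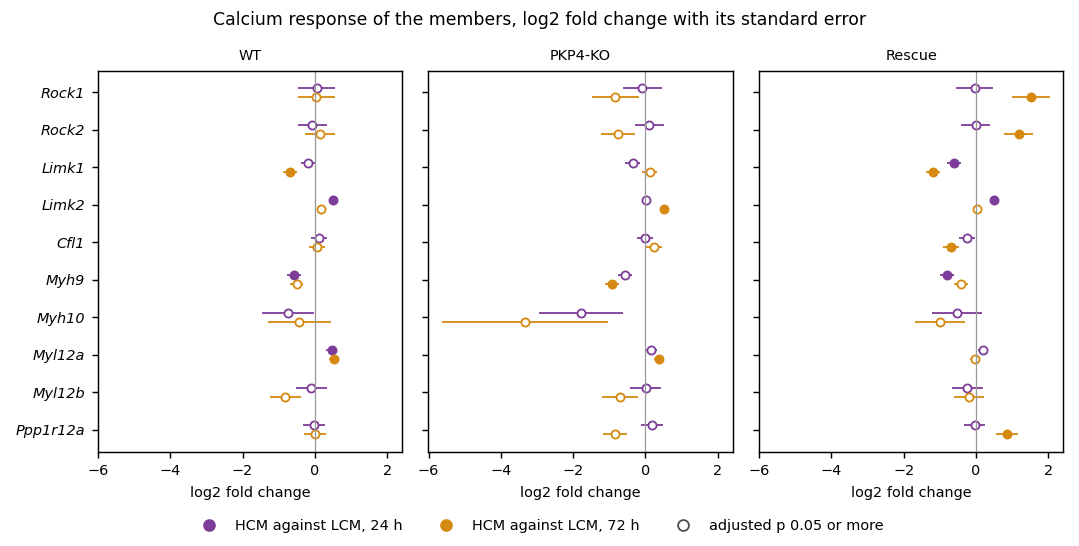
Each panel is 1 genotype and plots the log2 fold change of HCM against LCM for each gene at 24 h (purple) and 72 h (orange). Error bars are standard errors, and filled points have an adjusted p below 0.05. In PKP4-KO cells no gene is filled at 24 h, and in Rescue cells Limk1 lies at -1.19 at 72 h.

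Between 24 h and 72 h, WT cells showed no call among the 10 genes by edgeR in HCM (17.8% of all tested genes, 1 member at an unadjusted p under 0.05 and 0 by DESeq2) or in LCM (9.96%, 2 and 1). In PKP4-KO cells in HCM 4 passed (55.8%), Limk2 at 0.77 (edgeR adjusted p = 2.31e-06), Rock2 at -1.59 (SE 0.46, adjusted p = 0.00476), Ppp1r12a at -1.86 (adjusted p = 3.59e-05) and Myh9 at -0.67 (adjusted p = 0.00471). With length offsets Myh9 was 0.06 (edgeR adjusted p = 0.779), and without TMM scaling Limk2 was -0.31. In LCM 1 passed in PKP4-KO cells (26.1%), Ppp1r12a at -0.84 (edgeR adjusted p = 0.0426), which was lost in 4 fits without 1 library. Rescue cells showed none in HCM (24.3%, 2 at an unadjusted p under 0.05 and 1 by DESeq2) and 1 in LCM (9.81%), Limk2 at 0.50 (edgeR adjusted p = 0.00285).

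The wider pathway was examined with a list of 47 further genes that act upstream of, beside or against these 10, of which 45 could be tested. In PKP4-KO against WT, 25 passed at 24 h HCM (6 higher and 19 lower), 36 at 72 h HCM (7 and 29), 20 at 24 h LCM (6 and 14) and 26 at 72 h LCM (8 and 18), beside 42.8%, 51.8%, 40.2% and 45.1% of all tested genes, and 22.2%, 29.9%, 20.6% and 23.8% for decreases alone. With length offsets these counts were 27 (9 and 18), 31 (9 and 22), 22 (10 and 12) and 23 (10 and 13). The median log2 fold changes of the list were -0.22, -0.71, -0.34 and -0.34, beside -0.00157, -0.0719, 0.00325 and 0.0249 over all tested genes, and with length offsets the list medians were -0.25, -0.39, -0.27 and -0.27. PKP4-KO cells had lower levels of 10 of these genes, and higher levels of 2, in all 4 conditions. Of the 8 other effector kinases of small GTPases, 5, 7, 2 and 3 were lower in the same order of conditions and none was higher. Of the 3 formins, which nucleate actin filaments, 2, 3, 1 and 3 were lower, to be read beside the same shares of all genes.

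Pak1, a kinase that activates LIM kinases downstream of Rac and Cdc42, was at 32.9 ± 3.24 CPM in WT, 13.8 ± 1.66 in PKP4-KO, with 27.1 ± 5.88 in Rescue cells at 24 h HCM (SD, n = 3). It fell in PKP4-KO cells in all 4 conditions, most at 72 h HCM (-1.94, SE 0.15, edgeR adjusted p = 3.82e-11). PKP4-KO cells at 72 h HCM were the group of lowest length tilt, and values of single list genes are given without length offsets. The cofilin phosphatases moved in opposite directions. The slingshot phosphatase Ssh3 was at 45.0 ± 4.58 CPM in WT and 15.9 ± 2.67 in PKP4-KO cells at 24 h HCM, a change of -1.50 (SE 0.15, edgeR adjusted p = 1.89e-09), and was lower in all 4 conditions. Pdxp (chronophin), which also removes the LIM kinase mark from cofilin, was at 1.32 ± 0.107 CPM in WT, 9.86 ± 3.17 in PKP4-KO, with 4.10 ± 1.24 in Rescue cells. It rose by 2.90 (SE 0.42, edgeR adjusted p = 1.92e-06), 3.49, 3.28 and 2.92 at 24 h HCM, 72 h HCM, 24 h LCM and 72 h LCM, and the log2 fold changes of Rescue against PKP4-KO cells were -1.26, -1.59, -1.19 and -1.36.

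Upstream, Rnd1, an atypical small GTPase that opposes RhoA signaling, rose in PKP4-KO cells in all 4 conditions, from 1.51 ± 0.636 CPM in WT to 8.58 ± 4.00 at 24 h HCM (2.47, SE 0.31, edgeR adjusted p = 1.67e-07). In Rescue cells Rnd1 was at 17.6 ± 1.24 CPM in that condition and higher than WT in all 4. Its relative Rnd3 was lower in PKP4-KO cells in all 4 conditions (-0.80, -0.92, -1.07 and -1.43), as was the GTPase-activating protein Dlc1 (-1.003, -1.44, -1.26 and -2.09). Ezr, the ezrin that links actin to the membrane, was at 642 ± 93.3 CPM in WT, 187 ± 32.5 in PKP4-KO, with 461 ± 49.9 in Rescue cells at 24 h HCM (-1.78 for PKP4-KO against WT, SE 0.18, edgeR adjusted p = 2.2e-09). Of the other myosin II subunits, the heavy chain Myh14 was lower in PKP4-KO cells at 24 h HCM (-1.30) and higher at 72 h in HCM (2.15, SE 0.27, edgeR adjusted p = 2e-07) and LCM (1.32, adjusted p = 0.000171).

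In Rescue against PKP4-KO cells 25 list genes passed at 24 h HCM (17 higher and 8 lower), 36 at 72 h HCM (30 and 6), 20 at 24 h LCM (13 and 7) and 27 at 72 h LCM (21 and 6), beside 40.8%, 66.7%, 33.7% and 41.5% of all tested genes. With length offsets they were 29 (17 and 12), 30 (18 and 12), 24 (13 and 11) and 25 (16 and 9), beside 44.2%, 60.2%, 36.2% and 40.9%, so that the excess of higher genes at 72 h HCM was smaller. The formin Diaph2 was higher in Rescue cells in all 4 conditions (1.39, 3.23, 1.18 and 1.44, without length offsets). Against WT, 12 (5 and 7), 19 (15 and 4), 15 (7 and 8) and 15 (9 and 6) passed, beside 23.2%, 36.2%, 24.8% and 32.4%. Rnd1, Pdxp and the exchange factor Arhgef2 were higher in Rescue than in WT cells in all 4 conditions, with Rnd1 at 3.53, 1.81, 3.88 and 3.83, and the cofilin kinase Tesk1 was lower (-0.94, -1.13, -0.86 and -0.66). Arhgef2 also passed as higher in PKP4-KO than in WT cells in every condition except 24 h HCM.

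Likeness between genes was measured as Pearson's r over the 12 group means of log2 CPM, a description of groups that share cell lines and length tilt. Rock2 and Ppp1r12a were most alike among the 10 (r = 0.99), followed by Rock1 and Rock2 (0.94), and Rock1 and Cfl1 ran opposite (-0.78). The protein-coding genes most like Limk1 were Pias3 (0.973) and Pak6 (0.954). Those most like Rock2 were Tpr and Acsl3 (0.989 each), and those most like Ppp1r12a were Arih1 (0.989) and Tpr (0.988). Ccdc50 (0.98) and Arid4b (0.977) were closest to Rock1, Zfp772 (0.964) and Gid8 (0.961) to Limk2, Fam219b (0.918) and Nsmce1 (0.914) to Cfl1, Arhgap22 (0.954) and Mfhas1 (0.953) to Myh9, and Ube2n (0.946) and S100a2 (0.938) to Myl12a. Cald1 (0.976) and Map1b (0.965) were closest to Myh10, and Kdm2a (0.972) and Ankhd1 (0.969) to Myl12b.

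The genes differed in how far their levels ranged over the 12 groups. The highest group mean was 12.3 times the lowest for Rock1, 7.61 times for Rock2, 6.85 times for Ppp1r12a and 5.97 times for Limk1, but 3.57 times for Myh9, 3.50 for Myl12b, 1.95 for Cfl1, 1.72 for Limk2 and 1.61 for Myl12a. For Rock1, Rock2, Ppp1r12a, Myh9 and Myl12b the lowest group was PKP4-KO at 72 h HCM, the group of lowest length tilt. For Cfl1 this group was the highest. Myh10 was at 0 there and has no ratio. Over the other 11 groups, a choice made after seeing the data, the ratios were 7.02, 4.53, 3.87, 2.35 and 2.11, and 1.69 for Cfl1. Those of Limk1 (5.97), Limk2 (1.72) and Myl12a (1.61) were unaltered. With length offsets the log2 fold changes of Rescue against PKP4-KO at 72 h HCM were 2.17 for Rock1, 1.65 for Rock2 and 1.92 for Ppp1r12a, in place of 3.64, 2.92 and 2.78. For Rock1 the extremes were PKP4-KO (1.32 ± 0.549 CPM) and Rescue cells (16.2 ± 6.45) at 72 h HCM. For Limk1 they were PKP4-KO cells at 24 h HCM (6.59 ± 0.247 CPM) and WT cells at 72 h LCM (39.4 ± 1.1; SD, n = 3).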

How the data were processed

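The authors deposited read counts per gene for 36 libraries. Per the labels, methods and submitters' processing notes, strand-specific poly(A) libraries were aligned with HISAT2 2.1.0, handled with SAMtools 1.10 and counted with featureCounts 2.0.0 on Ensembl GRCm39; strand and multimapping settings of the counting were not given in the sources used here. From the deposited counts, 15114 genes passed filterByExpr and were fitted together (edgeR 4.0.16, R 4.3.3) with TMM factors, 1 mean for each of 12 groups, 24 residual degrees of freedom and quasi-likelihood tests. p-values were adjusted by Benjamini-Hochberg over these genes and called below 0.05. Standard errors (SE) beside edgeR values were derived from the test. Each is the size of the log2 fold change divided by the square root of the F statistic. CPM were computed from TMM-scaled totals. Fold bounds used a floor of 3 counts per library. Alternatives were DESeq2 1.42.0, no TMM, no filter, only the groups compared, a replicate block, leaving out each library and, chosen after seeing the data, offsets for gene length (lowess, span 0.3) and leaving out 11 libraries with a length tilt below -0.3. No 2 libraries of a group agreed within sampling noise (mean chi-square per gene 7.03 to 266 over 36 pairs). Scripts were tested on simulated data. All 10 genes are named, with Pkp4, at most 3 of the called pathway genes with the largest change in each direction per genotype comparison, and the 2 genes most like each, except 1 pathway gene that is not reported here. Members and lists were chosen with earlier results of these data known. Gene positions are from GENCODE vM39 on GRCm39, which held 98.9% of the gene identifiers, and promoters from RefSeq on GRCm38.p6. 18S rRNA took 0.563% to 5.35% of counts.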

Additional observations from a re-analysis of the deposited data

Results flagged for a closer look

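The effect of PKP4 loss (PKP4-KO against WT) differed between 72 h and 24 h in HCM by edgeR's test of the difference itself for Limk1, at 0.79 on the log2 scale, for Limk2, at 0.82, and for Ppp1r12a, at -1.71. Without TMM scaling, the differences of Limk1 and Limk2 were -0.00228 and 0.00362 and that of Ppp1r12a was -2.59. All 3 PKP4-KO libraries at 72 h HCM had the lowest length tilts of the series, between -1.94 and -1.75, and TMM factors of 0.481 to 0.546, against 0.705 to 1.39 in the other 33. Their part in these differences was not tested beyond the fits named.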

How the results depend on the processing

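Groups held 3 libraries, so 1 library could decide a call; 28 comparisons gave 280 values for the 10 genes. Without TMM scaling, 45 of the 280 values changed sign, of which 15 passed the threshold with or without it: Limk1 for HCM against LCM (-0.54) and 72 h against 24 h in HCM (-0.64) in PKP4-KO cells and for the 72 h minus 24 h difference in HCM (-0.00228); Limk2 for PKP4-KO against WT (-0.71) and Rescue against PKP4-KO (1.003) at 72 h HCM and for calcium (-0.19) and time (-0.31) in PKP4-KO cells; Cfl1 for Rescue against PKP4-KO at 72 h HCM (0.21) and for calcium (-0.43), time in HCM (-0.75) and time in LCM (-0.32) in PKP4-KO cells; and Myl12a for Rescue against PKP4-KO at 72 h HCM (0.92), calcium (-0.32) and time in HCM (-0.75) in PKP4-KO cells and the 72 h minus 24 h difference (-0.53). That scaling moved the median of all genes at 72 h HCM by -0.76 (PKP4-KO against WT) and 1.17 (Rescue against PKP4-KO), and by -1.06 in PKP4-KO cells over time in HCM; in the first, 42.2% of calls were higher in PKP4-KO cells, against 13.5% without TMM, 49.2% by DESeq2 and 49.7% with offsets. With offsets 25 of 280 changed sign, of which 3 passed with or without them, all of Myh9: for PKP4-KO against WT at 72 h HCM (0.16) and 72 h LCM (0.42) and for time in PKP4-KO cells in HCM (0.0583). The cause was not tested. Counts of the 10 genes called that moved by over 1.5 times are given next; 0 called genes refer to edgeR. Without TMM they were 9 (PKP4-KO against WT, 72 h HCM), 9 (Rescue against PKP4-KO, 72 h LCM), 1 (Rescue against WT, 24 h HCM), 1, 7, 1 and 2 (calcium in WT 24 h, PKP4-KO 72 h, Rescue 24 h and 72 h), and 2, 1, 8, 2, 1 and 0 (time in WT HCM and LCM, PKP4-KO HCM and LCM, Rescue HCM and LCM). Without the count filter they were 1 (Rescue against WT, 24 h HCM), 0 and 1 (calcium in WT, 24 h and 72 h). Both settings gave 9 list genes for Rescue against WT at 24 h LCM. With only the groups compared they were 3, with 13 list genes (Rescue against PKP4-KO, 72 h LCM), 1 (Rescue against WT, 24 h HCM), 1, 1, 1, 1 and 2 (calcium in WT 24 h and 72 h, PKP4-KO 72 h, Rescue 24 h and 72 h), and 0, 5 and 0 (time in PKP4-KO LCM, Rescue HCM and LCM). DESeq2 gave 1 for calcium in PKP4-KO at 24 h, 1, 2 and 1 for time (WT LCM, PKP4-KO LCM, Rescue HCM) and 1 for each difference between HCM and LCM. Offsets gave 2 (PKP4-KO against WT and Rescue against WT, 24 h LCM), 1 (calcium in PKP4-KO, 24 h), 2 and 1 (time in PKP4-KO LCM and Rescue HCM) and 1 (difference between HCM and LCM, 24 h). Leaving out the 11 libraries of low tilt gave 5 (Rescue against PKP4-KO, 24 h LCM), 1 and 2 (Rescue against WT, 24 h HCM and LCM), 1 (calcium in PKP4-KO, 24 h) and 2 and 3 (time in WT HCM and Rescue HCM). It gave no value where PKP4-KO at 72 h HCM enters. PKP4-KO at 72 h LCM was left with 1 library, so no counts are given where that group enters.

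Without 1 library the counts ranged, in the order 24 h HCM, 24 h LCM, 72 h HCM, 72 h LCM, over 4 to 5, 1 to 4, 4 to 6 and 3 to 5 (PKP4-KO against WT), 3 to 3, 2 to 4, 7 to 8 and 4 to 7 (Rescue against PKP4-KO) and 1 to 2, 1 to 2, 3 to 5 and 1 to 3 (Rescue against WT); for the list over 18 to 25, 15 to 21, 32 to 35 and 18 to 25, over 19 to 24, 15 to 19, 33 to 36 and 22 to 30, and over 11 to 13, 9 to 11, 14 to 19 and 14 to 15. Calcium gave 1 to 2 and 1 to 3 (WT, 24 h and 72 h), 0 to 1 and 2 to 4 (PKP4-KO), 2 to 2 and 1 to 5 (Rescue), time 0 to 0 and 0 to 0 (WT, HCM and LCM), 4 to 6 and 0 to 1 (PKP4-KO), 0 to 0 and 1 to 1 (Rescue), and the differences 2 to 5 and 0 to 0 (72 h minus 24 h, HCM and LCM) and 0 to 0 and 0 to 1 (HCM minus LCM, 24 h and 72 h). In these fits 75 of the 280 values changed sign at least once, none of them with a call before or after.

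The replicate numbers are shared labels, not stated pairs. Deviations of same-numbered libraries correlated at -0.65 to 0.72, and all pairs exceeded 0.1 in 2 of 24 comparisons. The replicate block gave 1 call for Rescue against WT at 24 h HCM, since Myl12a missed the threshold, and lost Limk2 (PKP4-KO against WT, 24 h LCM) and Myl12a (calcium, PKP4-KO, 72 h).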
